A study of Solanum lycopersicum with 3 samples.

Results

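The HSFA1a sites described here are the DNA affinity purification peaks that lie at the ends of the 12 numbered tomato chromosomes. A peak is a stretch of genome where sequenced tags pile up above the local background, and its summit is the base of highest pileup. A peak counted as an end site when its summit lay in the first or the last 10% of the extent of its chromosome, where the extent ran from position 1 to the outermost peak of either list. In replicate 1, 4292 of the 24176 deposited peaks met this rule, of which 2077 lay at first ends and 2215 at last ends. In replicate 2, 2596 of 14932 peaks met it, with 1234 at first ends and 1362 at last ends. The remaining 80% of the chromosomes, called the middle below, held 19872 and 12010 peaks. The rule used position only, so strength, width, sharing and spacing were free to vary.

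The assay was amplified DNA affinity purification sequencing (AmpDAP-seq), in which a tagged transcription factor made in a cell-free wheat germ extract and held on beads captures fragments of genomic DNA. The DNA came from leaves of 4-week-old Solanum lycopersicum plants of the cultivar M82, kept at 24 °C under days of 16 h of light, and the labels name no heat treatment. There were 2 biological replicates of HSFA1a carrying a Halo-tag, each with its own peak list, and 1 Halo-tag sample, which was not analysed here. The protein is the only factor present in such an assay and the DNA carries no nucleosomes. The peaks are thus candidate sites of binding in vitro and do not show occupancy in a leaf cell. Capture by the tag or the beads alone was not assessed here. The captured DNA was amplified with 20 PCR cycles and read as single 75 bp reads.

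HSFA1a is a class A heat shock transcription factor, known in tomato as the master regulator that starts the response to heat. Such factors bind as trimers to heat shock elements, which are inverted repeats of the short unit GAA found in promoters of chaperone genes and at many other places. Tomato chromosomes carry most of their genes in euchromatin along the outer parts of the arms, and long tracts of repeat-rich heterochromatin around the centromeres. The short arm of chromosome 2 is an exception, because it is heterochromatic and holds the nucleolus organiser, the array of ribosomal RNA genes. The DNA on the beads carries none of these chromatin states.

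Pooled over the 12 chromosomes, HSFA1a sites were sparser at the ends than in the middle in both lists, but the difference was not called when each chromosome was weighed alike. In replicate 1 the density was 26.8 peaks per Mb at the ends and 31.0 in the middle, and in replicate 2 it was 16.2 and 18.7. The end density over the middle density was thus 0.864 in replicate 1 and 0.865 for the other list (mean 0.864 ± 0.000483, SD, n = 2). The match of the ratios depended on the length of the lists. When the longer list was trimmed to its most significant peaks, to equal the shorter, the ratio was 0.939 in replicate 1, where 9 of 12 chromosomes had sparser ends, and 0.865 in replicate 2. Both ends together measured 160.3 Mb of an extent of 802 Mb. The ends were the less dense part on 10 of 12 chromosomes in replicate 1 (two-sided exact sign test over chromosomes p = 0.0386, adjusted p = 0.0849). Replicate 2 had 9 chromosomes with sparser ends, 2 with denser ends and a tie on chromosome 8 (exact sign test p = 0.0654, adjusted p = 0.131). All p-values of this kind were adjusted by Benjamini-Hochberg over 22 tests, and a result was called at an adjusted p under 0.05. The test covers the spread among chromosomes and not between samples, because the 12 chromosomes of a list come from the same library.

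Chromosomes 2 and 6 carried the exceptions in both replicates. On chromosome 2 the ends held 32.3 peaks per Mb against 28.0 in the middle in replicate 1, and 18.5 against 17.7 in replicate 2. On chromosome 6 the values were 29.2 against 25.5 in replicate 1 and 19.4 against 14.9 in replicate 2. The middle of chromosome 6 was also the least dense middle of all 12 in each list, so its reversed contrast involved both terms. The deepest deficit at the ends was on chromosome 9 in replicate 1 (26.8 against 35.3 peaks per Mb) and on chromosome 10 in replicate 2 (15.0 against 20.1). Without chromosome 2 the ratio was 0.845 in replicate 1 and 0.852 in replicate 2, and each difference was then called. Chromosome 2 was an exception, so leaving it out by itself moves the sign test toward a call.

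Taken one by one, the 24 ends ranged from 21.6 to 35.4 peaks per Mb in replicate 1, with a median of 26.5. The sparsest was the first end of chromosome 12, with 152 peaks (95% Poisson interval 18.3 to 25.3 per Mb). The densest was the first end of chromosome 2, the side with the lower coordinates, with 195 peaks (30.6 to 40.7 per Mb). The labels and the lists do not say which arm position 1 of a chromosome belongs to. Replicate 2 ranged from 12.9 to 20.5 peaks per Mb with a median of 16.2. The first end of chromosome 12 was again the sparsest, with 91 peaks (10.4 to 15.9 per Mb), whereas the densest was the last end of chromosome 7, with 140 peaks (17.2 to 24.2 per Mb). The scatter of the 24 ends was larger than counting error, with a variance over the counting variance of 1.99 in replicate 1 and 1.83 in replicate 2.

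Most single ends fell below the middle of their own chromosome in both lists. In 18 of the 24 ends the density was below that of the middle in both replicates, and in 4 it was above in both, namely both ends of chromosome 2 and both ends of chromosome 6. The last ends of chromosomes 7 and 8 went below in one list and above in the other. By the Poisson interval of the end, 14 ends lay below the middle and 2 above it in replicate 1, and 12 below and 2 above in replicate 2. The end densities of both lists correlated (Pearson r 0.711, Spearman rho 0.692) over 24 ends, which share their chromosomes and most of their peaks. The plot of density at each end sets these values beside the middle of the same chromosome.

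**Figure D1:**
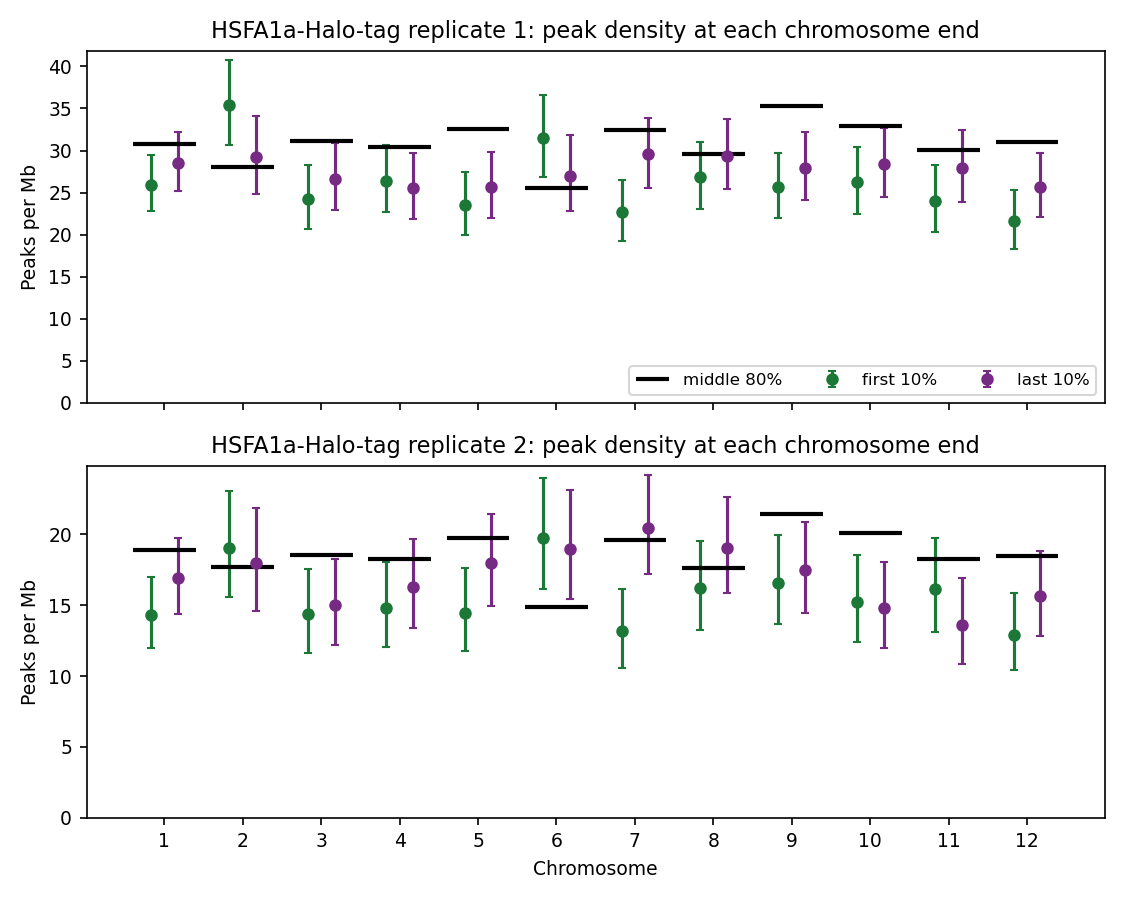
Peaks per Mb in the first 10% (green) and last 10% (purple) of each chromosome, with 95% Poisson intervals, and in the middle 80% (black bars), for replicate 1 above and replicate 2 below. Both ends of chromosomes 2 and 6 lie above the middle in each list, and the first end of chromosome 12 is the sparsest in each.

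First and last ends did not differ beyond the spread among chromosomes. The density was 25.9 peaks per Mb at first ends and 27.6 at last ends in replicate 1, with the last end denser on 9 of 12 chromosomes (exact sign test adjusted p = 0.189). For replicate 2 it was 15.4 and 17.0 peaks per Mb, with the last end denser on 8 of 12 (exact sign test adjusted p = 0.406). The last ends were measured from the outermost peak and the first ends from position 1, so the empty stretch beyond the outermost peak counts at the first end alone. That stretch was short, since the outermost peaks overlapping between the lists lay 14.8 to 112 kb from position 1.

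Density was not even within the outer 10%. In replicate 1 the outermost 1% of the extent held 31.1 peaks per Mb (95% Poisson interval 28.4 to 33.9), which is close to the density of the middle, and the band from 6% to 7% held 23.0 (20.7 to 25.5). The same bands of replicate 2 held 17.3 (15.4 to 19.5) and 13.3 (11.6 to 15.3) peaks per Mb. The 6% to 7% band was picked as the sparsest of the outer 10, so the size of this contrast is a description and partly follows from the choice. In megabases, the outermost 0.5 Mb held 31.9 peaks per Mb for replicate 1 and 17.2 for replicate 2. From 3 to 4 Mb the density was 24.5 and 15.0, and from 4 to 5 Mb it was 24.5 and 14.5. The replicate 2 intervals of the outermost 0.5 Mb (14.9 to 19.7) and of 4 to 5 Mb (13.1 to 16.2) overlapped. The sparsest stretches thus lay several megabases inside the tips in both lists, as the plot of density from end to middle shows.

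**Figure D2:**
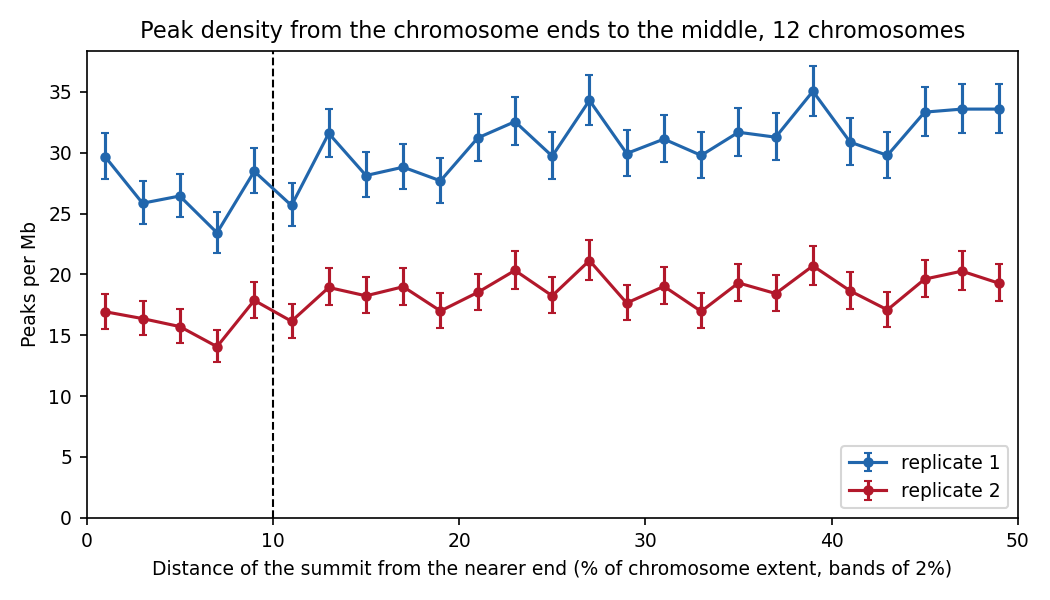
Peaks per Mb against the distance of the summit from the nearer chromosome end, in bands of 2% of the extent summed over 12 chromosomes, with 95% Poisson intervals. Both replicates dip at 6% to 8% and climb toward the middle, and the dashed line marks the 10% limit that defines an end site.

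Values on both sides of the 10% limit were as follows. Just inside it, from 8% to 10%, replicate 1 held 28.5 peaks per Mb with a median fold enrichment of 5.10. Just outside it, from 10% to 12%, the values were 25.7 peaks per Mb and 4.93. For replicate 2 the list gave 17.9 peaks per Mb and 6.62 inside, and 16.2 and 6.62 outside. The part of peaks also found in the other list was 59.9% inside and 57.1% outside in replicate 1. It was 95.8% inside and 90.7% outside in replicate 2, so sharing in that list changed across the limit by about as much as between ends and middle. In bands of 10% the density of replicate 1 went from 26.8 peaks per Mb in the outermost to 28.4, 31.6, 31.8 and 32.2 toward the middle. The same sequence for replicate 2 was 16.2, 17.9, 19.2, 18.9 and 19.0.

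The weakest peaks by significance had the deepest deficit at the ends. Strength was taken here as −log10 q, from the false discovery rate that the authors' peak caller gave each summit, and each list was split into 10 equal classes. In class 1, the weakest, the ends held 335 peaks in replicate 1, a density of 0.644 times that of the middle (95% interval from the exact binomial split 0.572 to 0.723). The class 1 ratio of replicate 2 was 0.623 (0.534 to 0.725), with 197 peaks at the ends. In class 5 it was 0.871 in replicate 1 and 0.895 in replicate 2. The order of the classes between was uneven in replicate 2, where classes 4, 6 and 7 had ratios of 0.927, 0.798 and 0.834. In class 10, the strongest, the ends were the denser part, with ratios of 1.12 (1.02 to 1.24) and 1.16 (1.03 to 1.32). These intervals cover counting error only.

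In class 1 the ends were less dense on 10 of 12 chromosomes in replicate 1 and on 12 of 12 in replicate 2. In class 10 they were denser on 8 of 12 in each list. When chromosomes 2 and 6 were left out, the class 1 ratio was 0.574 in replicate 1 and 0.614 in replicate 2, and the class 10 ratio was 1.08 and 1.13. Splitting by fold enrichment in place of −log10 q gave no such order in replicate 1. The ratio there was 0.822 in class 1 and 0.953 in class 10, but the lowest was 0.726 (0.648 to 0.811) in class 4, and class 8 had 0.812 (0.729 to 0.904). By fold enrichment the ratio in replicate 2 was 0.702 in class 1 and 1.04 in class 10. The plot of the density ratio by strength shows the classes by −log10 q.

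**Figure D3:**
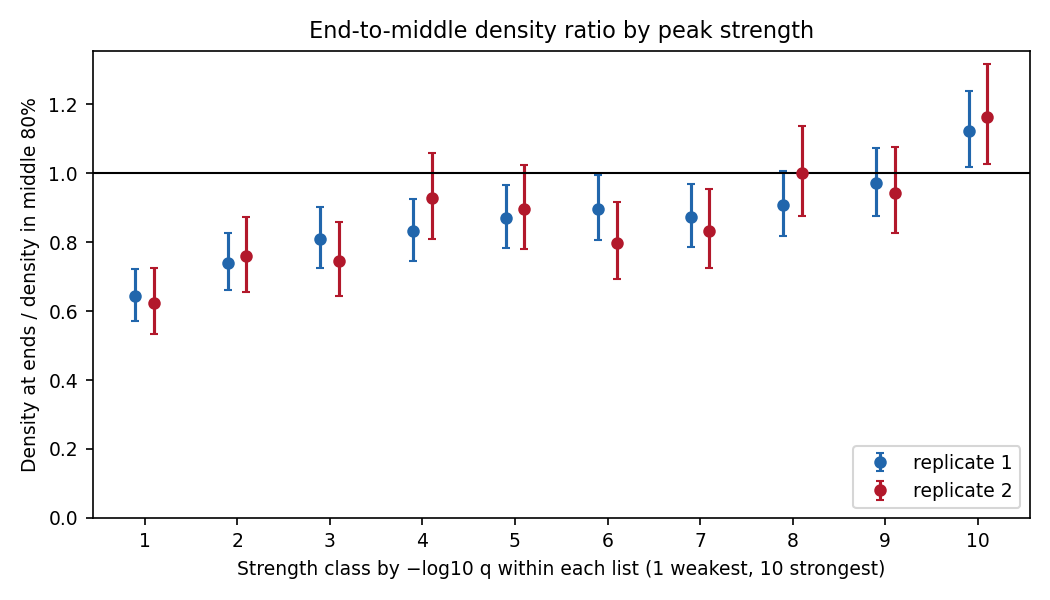
Density at the ends over density in the middle 80% in 10 equal classes of −log10 q (1 weakest, 10 strongest) of each list, with 95% exact binomial intervals. The ratio is 0.644 and 0.623 in class 1 and 1.12 and 1.16 in class 10 of replicates 1 and 2, and the line marks equal density.

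End peaks had higher significance than peaks of the middle but a similar fold enrichment. Median −log10 q was 22.1 at the ends and 18.8 in the middle in replicate 1, higher at the ends on 11 of 12 chromosomes (exact sign test adjusted p = 0.0175). The medians of replicate 2 were 13.3 and 11.8, again higher on 11 of 12 (exact sign test adjusted p = 0.0175). The fold enrichment, which the peak caller computes as pileup over local background with 1 added to each, had a median of 4.91 at the ends and 4.72 in the middle of replicate 1. For replicate 2 the medians were 6.72 and 6.59. On the log2 scale the difference was 0.06 in replicate 1 and 0.03 in replicate 2, with the ends higher on 9 of 12 chromosomes in each list (exact sign test adjusted p = 0.189 for both). The call on −log10 q in replicate 1 was lost in 5 alternatives, among them an outer 5% and an outer 20%, and in replicate 2 it was lost in 2.

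Pileup and background behind the fold enrichment were both higher at the ends. They were recovered from the formulas of the peak caller, which could be solved for 100% of the peaks in each list. The background is the number of tags that the peak caller expected at the summit. The sources do not say whether it was taken from the HSFA1a library or from a control. Its median was 12.01 tags at the ends of replicate 1 and 11 in the middle. Replicate 2 had 2.89 tags at the ends and 2.63 in the middle. The ends were higher on 11 chromosomes and tied on chromosome 6 in both lists (exact sign test adjusted p = 0.00430 for each, with log2 differences of 0.13 and 0.14). Median pileup was 65.7 tags against 58.9 in replicate 1 (log2 difference 0.16, higher on 11 of 12, exact sign test adjusted p = 0.0175). For replicate 2 it was 26 against 24 tags (log2 difference 0.12, higher on 11 and tied on 1, exact sign test adjusted p = 0.00430). Both calls of replicate 2 were lost with an outer 20%, where the log2 differences were 0.0432 for background and 0.0589 for pileup.

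Background rose toward the tips while fold enrichment did not. In the outermost 1% of replicate 1 the median background was 13.7 tags and the median fold enrichment 4.50, whereas from 9% to 10% they were 11 tags and 4.81. In replicate 2 the background was 3.27 tags in the outermost 1% and 2.54 from 9% to 10%, and the fold enrichment was 6.60 and 6.69. The backgrounds of both lists moved together (Pearson r 0.979 on the log2 scale) over 2494 overlapping end pairs. The median ratio of the replicate 2 background to that of replicate 1 was 0.232, and 50.3% of pairs lay within 2% of it. Whether the lists share a control is not given in the sources and was not tested. A shared control would by itself make the backgrounds move together. The backgrounds, and the calls on them in both lists, were thus not counted as independent measurements. A higher background requires more tags for the same fold enrichment, and its part in the lower density of weak peaks at the ends was not tested.

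Peak width differed little between ends and middle. The median was 219 bp at the ends and 215 bp in the middle of replicate 1, wider at the ends on 8 of 12 chromosomes (exact sign test adjusted p = 0.277). Replicate 2 peaks measured 184 and 181 bp, wider at the ends on 8, narrower on 2 and equal on 2 (exact sign test adjusted p = 0.189). Leaving out the narrowest and the widest 10%, end peaks spanned 162 to 295 bp in replicate 1 and 140 to 246 bp in replicate 2. The widest end peak measured 921 bp in replicate 1 and 687 bp in replicate 2. Among the single ends the median width ran from 204 to 233 bp in replicate 1 and from 173.5 to 195 bp in replicate 2.

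Single ends also varied in strength. Their median fold enrichment ranged from 4.30 to 5.49 in replicate 1 and from 6.24 to 7.37 in replicate 2, and the medians of both lists correlated with a Pearson r of 0.440 over the 24 ends. The corresponding r was 0.540 for width and 0.833 for background. By this measure strength and width of an end were less alike between the lists than its density. The r of the background cannot be ranked beside these, because the lists may share a control.

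Peaks with at least 1 bp in common with the other list were counted as shared. At the ends 2494 of 4292 replicate 1 peaks were shared, 58.1% (95% Wilson interval 56.6% to 59.6%), beside 55.9% for all peaks of that list on the numbered chromosomes. The share in the middle was 55.4% (54.7% to 56.1%), and the ends were higher on 9 of 12 chromosomes (exact sign test adjusted p = 0.189). In replicate 2, 2499 of 2596 end peaks were shared, 96.3% (95.5% to 96.9%), beside 92.6% for the whole list on those chromosomes. The middle of replicate 2 had 91.8% (91.3% to 92.3%). The ends were higher on 12 of 12 chromosomes, by 2.24 to 6.32 percentage points (exact sign test p = 0.000488, the smallest it can give, adjusted p = 0.00430).

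Replicate 1 was the deeper library by an estimate of 0.0480 tags per base against 0.0124 in replicate 2. The estimate came from the smallest background and the shortest peak of each list, and not from read counts. Among the single ends the shared part of replicate 2 ran from 92.2% to 99.0%, and that of replicate 1 from 46.4% to 68.3%. The plot of sharing by chromosome shows the parallel shift in replicate 2 and the mixed directions in replicate 1. In replicate 1 the ends of chromosomes 2, 10 and 11 were shared less often than their middles, by up to 4.18 percentage points on chromosome 2 (55.1% against 59.2%).

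**Figure D4:**
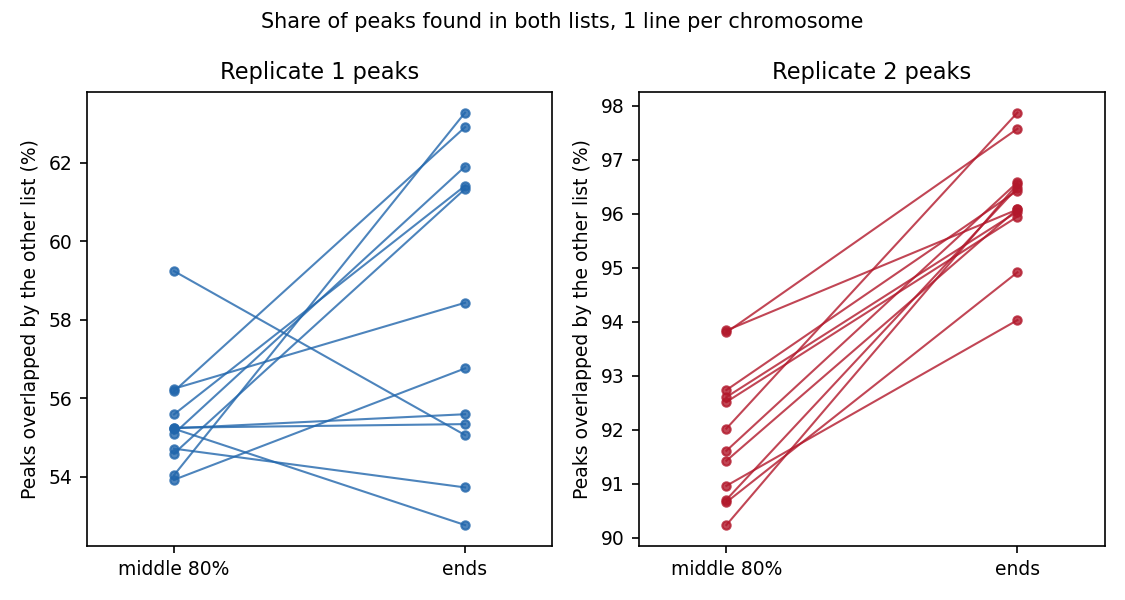
Percent of peaks overlapped by a peak of the other replicate in the middle 80% and at the ends, with 1 line per chromosome, for replicate 1 (left) and replicate 2 (right). The axes start above 0 and differ in range. All 12 lines rise toward the ends in replicate 2, and 9 of 12 rise in replicate 1.

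Since end peaks were the more significant, sharing was also compared at matched strength, within the 10 classes of −log10 q weighted by the end peaks. In replicate 2 the matched share of the middle was 93.3% against 96.3% at the ends, and the ends were higher on 12 of 12 chromosomes (exact sign test adjusted p = 0.00430). In its weakest class 75.1% of end peaks were shared and 59.4% of middle peaks. From class 7 upward all but 1 of the end peaks of replicate 2 had a partner. Middle peaks were alike there, with 99.7% shared in class 7 and 100% in classes 8, 9 and 10. In replicate 1 the matched share was 59.7% in the middle against 58.1% at the ends, lower at the ends on 8 of 12 chromosomes (exact sign test adjusted p = 0.406), so the direction there was opposite and not called. The excess of replicate 2 was no longer called with only peaks of fold enrichment 4 or more in both lists (3.08 percentage points, 1.05 at matched strength) or with an outer 20% (1.99 and 1.12 percentage points).

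Unshared peaks showed a larger density contrast than shared peaks in both lists, as a description with no test. The ends of replicate 2 held 97 unshared peaks, 0.605 per Mb against 1.53 in the middle, a ratio of 0.394, and they were sparser than the middle on 12 of 12 chromosomes. Replicate 1 had 1798 unshared end peaks, 11.2 per Mb against 13.8, a ratio of 0.811, sparser on 11 of 12. For shared peaks the ratio was 0.906 in replicate 1 and 0.907 in replicate 2, with the ends sparser on 9 of 12 chromosomes in each. Shared end peaks had median fold enrichments of 6.74 and 6.79 in replicates 1 and 2, and unshared end peaks had 3.55 and 4.31. In the middle the medians were 6.76 and 6.84 for shared and 3.54 and 4.22 for unshared peaks. By −log10 q the ends were higher within each kind. The medians of shared peaks were 45.2 at the ends and 39.6 in the middle of replicate 1, and 13.8 and 12.9 in replicate 2, and those of unshared peaks were 10.4 and 9.54, and 5.17 and 5.01.

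How close the replicates were at a shared end site depended on the pseudocount of the fold enrichment. Over 2494 overlapping pairs the fold enrichment of replicate 2 exceeded that of replicate 1 by a median of 0.10 on the log2 scale (SD 0.38), and it was the higher value in 59.7% of pairs. Without the 1 added to pileup and background the median excess of replicate 2 was 0.37 on the log2 scale (SD 0.37). Summits lay a median of 9 bp apart, and 97.0% were within 50 bp. The log2 fold enrichments of the pairs correlated (Pearson r 0.832, Spearman rho 0.827), against 0.818 and 0.809 in the middle. The correlations run across peaks of the same 2 libraries, whose backgrounds move together, so the pairs are not independent points.

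**Figure D5:**
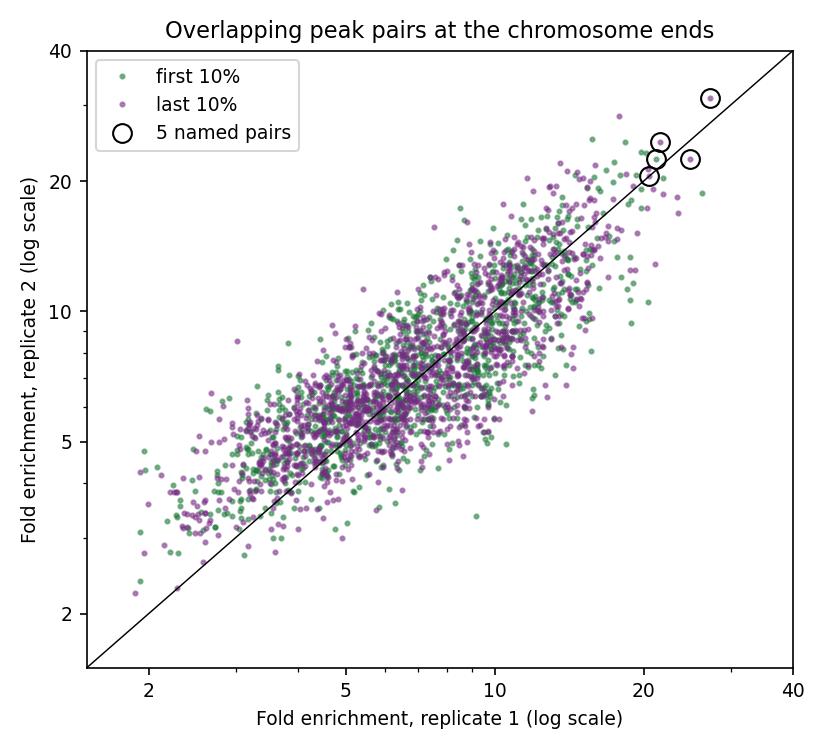
Fold enrichment of the 2494 overlapping end pairs in replicate 1 (x axis) and replicate 2 (y axis), both on log scales, for first ends (green) and last ends (purple). The line marks equal values, and circles mark the 5 pairs of largest smaller fold enrichment, which lie between 20.5 and 31.2 in both lists.

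The strongest pair of the whole comparison was an end site. It lay on chromosome 4 of the M82 assembly at chr4:65765796-65766094 in replicate 1, 0.453 Mb from the end of the extent. Its fold enrichment was 27.3 and then 31.2 in the second list, from pileups of 222 and 82 tags over backgrounds of 7.16 and 1.66. Without the added 1 these are ratios of 31.0 and 49.4. Those backgrounds are the lowest that occur in the lists. Its summits were 2 bp apart and no other replicate 1 summit lay within 23.3 kb.

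The other named pairs had fold enrichments from 20.5 to 24.9, below those of the strongest pair in each list. The pair at chr8:61179761-61180095 had fold enrichments of 24.9 and 22.5, with both summits on the same base, 5.55 Mb from the end. The pair at chr9:66682245-66682801 had 21.6 and 24.6 and lay 2.03 Mb from the end. Its width differed between the lists, with 557 bp in replicate 1 and 292 bp in replicate 2. The pair at chr12:412815-413080 had 21.2 and 22.5 and lay 0.413 Mb from position 1. It was the only one of the 5 at a first end, and it sat at the sparsest end of both lists. The fifth pair, at chr4:62421492-62421790, had 20.5 in each list and lay 3.80 Mb from the same end as the strongest pair. Among all pairs on the numbered chromosomes, ordered by the smaller of both fold enrichments, these 5 ranked 1, 6, 8, 9 and 15. Genes near these sites were not analysed here, because no annotation of this assembly was used.

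End sites took a larger part of the very strongest pairs than of all pairs. They made up 4 of the first 10, 18 of the first 50 (36.0%, 95% Wilson interval 24.1% to 49.9%) and 28 of the first 100 (28.0%, 20.1% to 37.5%). Of the first 1000 they made up 195 (19.5%, 17.2% to 22.1%), close to the 18.5% of all pairs. The best pair of each of the 24 ends was also taken, with no equal stretch of the middle set beside it. The smaller fold enrichment of the best pair of an end ranged from 12.5 at the last end of chromosome 3 to 27.3, with a median of 18.1.

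Some strong end peaks had no partner. In replicate 1 the unshared end peak of highest fold enrichment was chr3:3680729-3680968, with 10.1, and the nearest replicate 2 summit was 1076 bp away. In replicate 2 it was chr4:66218613-66218849, with 11.8 from a pileup of 38 tags, and the nearest replicate 1 summit was 56076 bp away. That peak is the last one on chromosome 4 and sets the extent of the chromosome. The deeper library called no peak over that last stretch of chromosome 4, where the shallower one did.

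Neighbouring sites were farther apart at the ends than in the middle, without passing the threshold over all chromosomes. In replicate 1, 47.6% of end peaks had another summit of the same list within 10 kb, against 52.7% in the middle, lower at the ends on 10 of 12 chromosomes (exact sign test p = 0.0386, adjusted p = 0.0849). The shares of replicate 2 were 33.9% and 38.4%, lower on 9 of 12 (exact sign test adjusted p = 0.189). The median distance to the nearest summit was 10808.5 bp at the ends and 9193 bp in the middle of replicate 1, and 18688.5 and 15442.5 bp in replicate 2. Without chromosome 2 the difference in replicate 1 was -5.85 percentage points and was called. That chromosome had the higher share at its ends, so leaving it out by itself moves the sign test toward a call.

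At matched density, no difference in spacing was detected. The share with a neighbour within 10 kb was divided by the share that sites placed independently at the same density would give. In replicate 1 this ratio was 1.15 at the ends and 1.14 in the middle, higher at the ends on 5 of 12 chromosomes (exact sign test adjusted p = 0.774). Replicate 2 had 1.23 in both places, higher on 4 of 12 (exact sign test adjusted p = 0.406). The differences over single chromosomes ran from -0.0863 to 0.173 in replicate 1 and from -0.299 to 0.277 in replicate 2, and a common shift much smaller than these could not be detected.

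Close neighbours existed at the ends as elsewhere. Within 1 kb of another summit lay 240 end peaks of replicate 1 (5.59%) and 104 of replicate 2 (4.01%). The shares in the middle were close, 6.05% in replicate 1 and 3.89% in replicate 2. The closest end summits were 0.235 kb apart at the first end of chromosome 2 in replicate 1 and 0.230 kb apart at the first end of chromosome 6 in replicate 2. The longest stretch without a summit inside an end was 361 kb at the last end of chromosome 12 in replicate 1 and 713 kb at the last end of chromosome 4 in replicate 2. Within single ends the median nearest distance ranged from 8.68 to 14.3 kb in replicate 1 and from 13.1 to 28.6 kb in replicate 2.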

How the data were processed

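AmpDAP-seq was performed on leaf DNA of tomato M82 in 3 samples, grouped by the genotype label into HSFA1a-Halo-tag (2 replicates) and Halo-tag (1, not analysed here). Per the labels, the authors used Trimmomatic 0.38, Bowtie2 2.3.5, SAMtools 1.9 and MACS2 2.2.7.1, and deposited 1 peak list per HSFA1a-Halo-tag replicate at a q-value threshold of 0.05. The control and the handling of duplicates are not given in the sources used here, nor is the assembly of the lists, taken as the M82 assembly that the study used for its other data. The deposited fold enrichment is a ratio of pileup to local background, and the deposited significance values are −log10 p-values and −log10 q-values. A deposited score repeats the significance and was not used. A peak list reports only regions above its threshold, so density counts called peaks.

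Peaks were analysed in Python 3.11.15 with numpy 2.4.6, pandas 2.3.3 and scipy 1.17.1, and plotted with matplotlib 3.10.9. Coordinates are written from 1. Each chromosome gave 1 difference between its ends and its middle, tested by an exact two-sided sign test. Pileup and background were solved from the caller's formulas to within 0.005 in −log10 p, and backgrounds were rounded to 2 decimals. Replicate 1 pileups needed a factor of 0.981. Depth was estimated from the smallest background and the shortest peak of each list, without read counts, as 0.0480 and 0.0124 tags per base. By this estimate replicate 2 held 25.8% of the replicate 1 depth and has the larger counting error. Intervals cover counting error only. PCR reads without molecular identifiers are not independent molecules. The scripts were tested on simulated data.

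The named regions are the 5 end pairs with the largest smaller fold enrichment, the strongest unshared end peak of each list, and the densest and sparsest ends. Members and lists were chosen with earlier results of these data known. Alternatives were other outer parts, stricter thresholds, lists of equal length, peak middles as positions, other overlap rules and distances, a signed-rank test, and leaving out chromosomes or replicates. Sequences under the peaks and nearby genes were not analysed here.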

Additional observations from a re-analysis of the deposited data

How the results depend on the processing

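Of 260 alternatives of tested results, 219 kept direction and side of the threshold, 13 lost the call, 15 gained it and 13 turned direction; the cause was not tested. The lower density and the higher background at the ends kept their direction in all of them. Ends and middle were paired within each chromosome. Samples were not paired between groups, because both analysed lists belong to 1 group.

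Calls gained. For density, the signed-rank test called replicate 1 (0.864), as did leaving out chromosome 2 (0.845) or chromosomes 2 and 6 (0.827, chosen after seeing the data). In replicate 2 the last 2 settings gave 0.852 and 0.826. For neighbours within 10 kb in replicate 1 the same 3 settings gave -5.11, -5.85 and -6.36 percentage points, and in replicate 2 an outer 20% gave -3.62 and leaving out both chromosomes -6.25. An outer 20% also called the log2 fold enrichment of replicate 1 (0.0814) and its matched sharing (-1.16 percentage points). Width was called at a difference of 3 bp with a fold enrichment of at least 4 in replicate 1 and by the signed-rank test in replicate 2 (3 bp). Without chromosomes 2 and 6, first ends of replicate 1 were called sparser by -2.81 peaks per Mb.

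Calls lost. With an outer 20% replicate 2 lost background (0.0432), pileup (0.0589), −log10 q (0.791), sharing (1.99) and matched sharing (1.12). With a fold enrichment of at least 4 it lost −log10 q (1.501), sharing (3.08) and matched sharing (1.05). Replicate 1 lost −log10 q with lists of equal length (2.83), an outer 20% (3.32), 5 Mb (2.68) or 5% (3.24), and q at most 1e-05 (2.84).

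Directions turned, all among uncalled differences. Lists of equal length gave a log2 fold enrichment of -0.0262 and sharing of -0.880 percentage points in replicate 1, and leaving the pseudocount out gave -0.00368 in replicate 2. With an outer 20%, first ends were the denser by 0.512 and 0.337 peaks per Mb. Spacing at matched density in replicate 1 turned with a fold enrichment of at least 4 (-0.00624), equal lists (-0.0101), 5 Mb (-0.0108), 5% (-0.0398), q at most 1e-05 (-0.00958) and 50 kb (-0.00173), and in replicate 2 with a fold enrichment of at least 4 (0.00291) and 5 kb (0.0445). Taking each replicate alone, matched sharing ran from -1.57 to 2.93 percentage points and matched spacing from -0.00438 to 0.00700.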

Other observations

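The outermost overlapping pair of an end varied widely in strength. At the 12 first ends it lay a median of 39.3 kb from position 1, and its replicate 1 fold enrichment ranged from 3.32 to 15.5 with a median of 8.01. At the 12 last ends it lay 0.105 to 616 kb from the end of the extent, with a median of 12.7 kb. Its fold enrichment there ranged from 2.15 to 11.9 with a median of 5.38. The extent ends at the outermost peak of either list, so these distances cannot be set against those from position 1. The pair 616 kb inside was on chromosome 11, where the last stretch held no site called in both lists.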
